A study of Mus musculus with 32 samples.

Results

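The genes described here are 36 genes of cholesterol and fatty acid synthesis, taken as a list of symbols and matched by Ensembl gene identifier to the 41687 rows of a table of estimated counts from mouse lung. All 36 were found and all 36 passed the filter on low counts in every comparison. They were ordered by role: 7 genes of the mevalonate steps, 11 of the sterol steps, 5 that regulate the SREBP transcription factors, 5 that supply and assemble fatty acid chains, and 8 that elongate, desaturate or activate fatty acids.

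The mevalonate pathway turns acetyl-CoA into isoprenoid units, which the sterol enzymes join and reshape into cholesterol. SREBP-2 (Srebf2) and SREBP-1 (Srebf1) are membrane-bound transcription factors that switch on these genes and the fatty acid genes: the escort protein Scap carries them to the Golgi when sterol is low, and Insig1 and Insig2 hold them back when sterol is high. In lung, alveolar type 2 cells make fatty acids and phospholipids for surfactant, the film that keeps alveoli open. Bmal1, encoded by Arntl, is a core activator of the circadian clock and binds E-box sequences together with Clock.

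Lungs came from 12 mice, 6 wild-type (WT, C57b/6) and 6 Bmal1 knock-outs (KO), bred in-house, aged 8 to 18 weeks and all labelled female. Their RNA was made into libraries in up to 3 ways, so that the 32 libraries fall into 6 groups: RiboZero (ribosomal RNA pulled down, 200 ng of RNA) and PolyA (polyadenylated RNA selected, 200 ng), each with 6 WT and 6 KO mice, and NoSelect (no selection, 15 ng, 6 preparations of each animal combined) with mice 3 to 6 of each genotype. All libraries had 11 cycles of PCR. The labels used here give neither the allele of the knock-out, nor the cells in which it acts, nor the time of day of sampling. Values are given as CPM (counts scaled to a common library size) on the scale of each preparation, and n is the number of mice.

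Total counts ran from 11638594 to 25801237 in RiboZero, 29924325 to 41548830 in PolyA and 74979802 to 115059756 in NoSelect libraries. The rows of Lars2 and Gm42418 held 67.8% to 71.5% of the NoSelect counts and at most 0.158% elsewhere, so CPM values of NoSelect are lower throughout. Arntl stood at 38.9 ± 3.61 CPM in WT and 21.9 ± 1.66 in KO RiboZero libraries (SD, n = 6), at 35.4 ± 2.63 and 29.3 ± 2.18 in PolyA (SD, n = 6), and at 10.1 ± 0.302 and 6.28 ± 0.355 in NoSelect (SD, n = 4). Which part of the gene was deleted is not given in the sources used here. The clock repressor Nr1d2, a target of Bmal1, fell in RiboZero by 3.44, in PolyA by 3.52 and in NoSelect by 3.02 on the log2 scale (edgeR adjusted p = 7.9e-07, 1.9e-07 and 1.5e-05). KO mouse 6 stood apart from its label in all its 3 libraries, with 2 to 16 counts of Xist against 13590 to 52858 in the other 29 libraries and 2195 to 2967 counts of Ddx3y against 0. Its NoSelect library is also labelled as liver, yet it held 218087 counts of the surfactant gene Sftpc, 16 of Alb and 0 of Ttr. Counts of genes called for genotype are therefore given with and without KO mouse 6, as are some values of Pmvk, Scd1, Elovl1 and Fads1. Other results include this mouse.

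Because Bmal1 binds E-boxes, the start regions of the genes were searched for the E-box CACGTG. Windows of RefSeq (GRCm38.p6) that run from 250 bases before to 50 bases after the start were available for 30 of the 36 genes. The E-box was found in 6 of these 30 genes (Dhcr7, Elovl5, Hsd17b7, Insig1, Sc5d and Scap), against 8.09% of the 27025 genes in the same table. The 4 occurrences that lie before the start and outside any annotated exon are shown with 20 bases on each side, 5′ to 3′ on the strand of the gene, with the E-box in capitals. They lie at chr1:169969323-169969368 (minus strand) for Hsd17b7, chr5:28071291-28071336 (plus) for Insig1, chr9:42264373-42264418 (minus) for Sc5d and chr9:77917184-77917229 (plus) for Elovl5.
Hsd17b7: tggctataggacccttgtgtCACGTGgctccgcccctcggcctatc
Insig1: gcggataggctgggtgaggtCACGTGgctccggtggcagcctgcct
Sc5d: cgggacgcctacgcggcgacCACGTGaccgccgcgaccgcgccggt
Elovl5: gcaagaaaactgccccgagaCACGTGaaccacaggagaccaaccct
A form of the sterol regulatory element, TCACNCCAC, was found in Hmgcs1 alone, 137 bases before its start at chr13:119690194-119690242 (plus), against 1.44% of all genes. The CCAAT box, read by the factor NF-Y that acts beside SREBP at many sterol genes, was found in 25 of the 30 genes, against 41.1% of all genes. Elovl1, one of the genes that differed between genotypes, has a CCAAT box 35 bases before its start at chr4:118428038-118428082 (plus) and no E-box in this window.
Hmgcs1: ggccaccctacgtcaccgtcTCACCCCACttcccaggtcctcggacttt
Elovl1: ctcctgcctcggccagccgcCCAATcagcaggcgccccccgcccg
The D-box TTATGTAA was found in none of the 30 genes (1.11% of all genes) and the ROR element TAGGTCA in Dhcr7 alone (2.97%). Both strands were searched, and none of these motifs contains another. A match describes the letters of the window and is not evidence of binding. None of the 6 genes with an E-box passed the test for genotype in any preparation. Fads1, Fdft1, Fdps, Scd1, Scd2 and Sqle had no window and were not searched, so for Fads1, one of the genes that differed between genotypes, nothing is given here.

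The genotypes were compared inside each preparation to ask whether loss of Bmal1 changed the level of these genes in lung. Few of them changed. In PolyA libraries Elovl1 and Fads1 fell, to 77.9% and 83.5% of their WT level, and no gene of the list rose. In RiboZero and NoSelect libraries 0 of 36 passed the threshold, which was an edgeR quasi-likelihood test with an adjusted p under 0.05. The share of all rows that passed was 4.03% in PolyA (2.41% lower in KO), 3.46% in RiboZero and 2.17% in NoSelect, so the 2 of 36 in PolyA are near that background. At an unadjusted p under 0.05 the list held 9, 8 and 5 genes in RiboZero, PolyA and NoSelect, where 16.4%, 18% and 15.7% of all rows did. DESeq2 called 5, 3 and 1 genes. They were Elovl1, Fads1, Srebf1 and Srebf2 lower and Scd2 higher in RiboZero, Elovl1 and Fads1 lower and Ebp higher in PolyA, and Fads1 lower in NoSelect. The shares above are those of edgeR, and the share of all rows called by DESeq2 is not given here. Over all alternative fits, DESeq2 among them, at most 985, 1564 and 874 of all rows were called. The direction of the fitted difference was below 0 in all preparations for 14 genes, above 0 for 9 and mixed for 13. The preparations share the mice, so these are not independent counts.

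**Figure D1:**
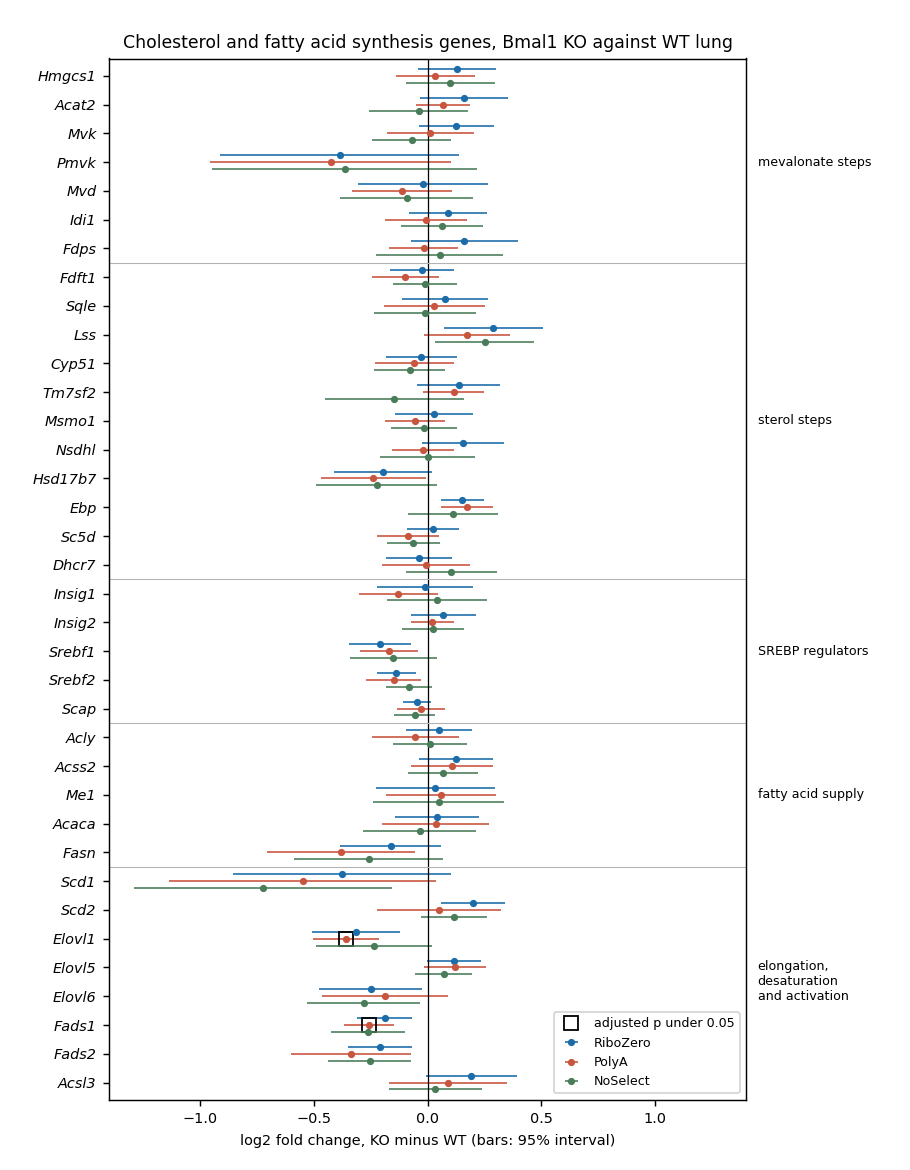
Fitted log2 fold change, KO minus WT (x axis), of the 36 genes ordered by role, with 95% intervals as bars and colours for RiboZero, PolyA and NoSelect. Squares mark Elovl1 and Fads1 in PolyA, which passed an adjusted p under 0.05, and Scd1 and Pmvk have the widest intervals.

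The intervals bound how large a difference could have gone unseen. The 95% interval of the log2 fold change lay within 0.5 of 0 in either direction for 32 genes in RiboZero, 31 in PolyA and 32 in NoSelect, and within 1 for 36, 35 and 35. Scd1 was the gene outside 1, with bounds of -1.14 in PolyA and -1.29 in NoSelect. WT and KO libraries did not overlap for Srebf2 and Scap in RiboZero and for Elovl1 and Fads1 in PolyA, lower in KO each time, and for no gene in NoSelect. The share of all rows without overlap was 2.89% in RiboZero (1.53% lower in KO), 3.21% in PolyA (1.9% lower) and 9.51% in NoSelect.

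The 7 genes of the mevalonate steps had median log2 fold changes of 0.13 in RiboZero, -0.01 in PolyA and -0.04 in NoSelect, and none passed the test. The first committed condensation is made by Hmgcs1, at 0.13, 0.03 and 0.10, and its substrate by the thiolase Acat2, at 0.16, 0.07 and -0.04. The kinase Mvk stood at 0.13, 0.01 and -0.07, the decarboxylase Mvd at -0.02, -0.11 and -0.09, the isomerase Idi1 at 0.09, -0.01 and 0.06, and the prenyl transferase Fdps at 0.16, -0.02 and 0.05.

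Pmvk, phosphomevalonate kinase (chromosome 3, 89454541 to 89469013, plus strand), had the widest spread among mice of the 7. In RiboZero its lowest, median and highest CPM were 29.3, 60.8 and 76.0 in WT and 32.7, 37.2 and 74.6 in KO. In PolyA they were 42.1, 90.5 and 119 in WT and 47.2, 54.4 and 102 in KO. The groups overlapped over nearly their whole range, and the same mice were low and high in both preparations. In NoSelect, WT mice 3 to 6 held 17.9, 16.6, 13.4 and 12.4 CPM and KO mice 3 to 6 held 13.0, 7.98, 8.09 and 17.6 CPM. The log2 fold changes of -0.39 (SE 0.24), -0.43 (SE 0.25) and -0.37 (SE 0.26) did not pass the test (adjusted p = 0.48, 0.39 and 0.55). Without KO mouse 6 they were -0.59, -0.59 and -0.64, and without KO4 or KO5 the NoSelect value was -0.22 or -0.23. The ordered values left a gap: WT1, KO1, KO2, KO4 and KO5 lay at or below 38.4 CPM in RiboZero and 55.7 in PolyA, and the other 7 mice at or above 55.3 and 83.0. Of the NoSelect mice, KO4 and KO5 lay at or below 8.09 CPM and the other 6 at or above 12.4.

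Of the 11 sterol genes none passed the test, with medians of 0.03, -0.02 and -0.01. Lss, the cyclase that closes the sterol rings to lanosterol (chromosome 10, 76531588 to 76557138, plus strand), had the largest positive difference of the list in RiboZero and NoSelect, and stood level with Ebp in PolyA. Its lowest, median and highest CPM were 34.1, 41.5 and 46.0 in WT and 43.0, 48.8 and 63.1 in KO RiboZero libraries. In PolyA they were 28.0, 30.7 and 37.0 in WT and 31.0, 36.3 and 39.4 in KO. The ranges overlapped in both, with KO1 and KO2 highest among the KO mice. Among NoSelect libraries, WT mice 3 to 6 held 11.1, 10.4, 9.88 and 8.94 CPM and KO mice 3 to 6 held 11.8, 13.8, 10.2 and 12.2, with KO5 below WT3 and WT4. The log2 fold changes were 0.29 (SE 0.10), 0.17 (SE 0.09) and 0.25 (SE 0.10), with adjusted p = 0.16, 0.32 and 0.26.

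Hsd17b7, a ketosteroid reductase of the sterol steps whose window holds the E-box shown above, stood at -0.20, -0.24 and -0.22 (adjusted p = 0.35, 0.26 and 0.41). Ebp, the sterol isomerase, stood at 0.15, 0.17 and 0.11 with adjusted p = 0.080 in RiboZero and 0.093 in PolyA. Its values were tight, with WT at 43.0 to 53.6 CPM and KO at 50.2 to 56.1 CPM in PolyA, and WT2 alone within the KO range. The remaining 8 genes, which are squalene synthase Fdft1, squalene epoxidase Sqle, the demethylases and reductases Cyp51, Tm7sf2, Msmo1 and Nsdhl, and the late enzymes Sc5d and Dhcr7, lay between -0.15 (Tm7sf2, NoSelect) and 0.15 (Nsdhl, RiboZero).

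Of the 5 regulators none passed the test in edgeR, and their medians were -0.05, -0.13 and -0.06. Srebf2 stood at -0.14, -0.15 and -0.08 (adjusted p = 0.076, 0.16 and 0.43). In RiboZero its WT libraries held 127 to 141 CPM and its KO libraries 116 to 126 CPM, without overlap, whereas in PolyA the ranges of 194 to 232 and 171 to 203 overlapped. Srebf1 stood at -0.21, -0.17 and -0.15 (adjusted p = 0.093, 0.14 and 0.44). Scap stood at -0.05, -0.03 and -0.06, and although its RiboZero libraries did not overlap (60.81 to 65.1 CPM in WT, 58.2 to 60.76 in KO), the KO mean was 96.9% of the WT mean. Insig1 stood at -0.01, -0.13 and 0.04 and Insig2 at 0.07, 0.02 and 0.02.

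The 5 genes that supply and assemble fatty acid chains had medians of 0.04, 0.03 and 0.01, and none passed the test. ATP citrate lyase Acly stood at 0.05, -0.06 and 0.01, the acetyl-CoA synthetase Acss2 at 0.12, 0.11 and 0.07, and malic enzyme Me1, a source of NADPH, at 0.03, 0.06 and 0.05. Acetyl-CoA carboxylase Acaca, which makes malonyl-CoA, stood at 0.04, 0.03 and -0.04.

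Fasn, the fatty acid synthase that builds palmitate (chromosome 11, 120805846 to 120824547, minus strand), stood apart from these 4. The lowest, median and highest CPM were 812, 938 and 1025 in WT and 633, 864 and 959 in KO RiboZero libraries. In PolyA they were 322, 345 and 461 in WT and 183, 311 and 341 in KO. KO3 and KO5 were the lowest libraries in both, and the other 4 KO mice lay within or near the WT range. The NoSelect libraries of WT mice 3 to 6 held 276, 290, 281 and 235 CPM and KO mice 3 to 6 held 171, 264, 203 and 266, again with KO3 and KO5 lowest. Fitted log2 fold changes were -0.16 (SE 0.10), -0.38 (SE 0.15) and -0.26 (SE 0.14), with adjusted p = 0.48, 0.19 and 0.44. Without KO3 they were -0.10, -0.28 and -0.15.

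The 8 genes of elongation, desaturation and activation had medians of -0.20, -0.22 and -0.24, against medians of all rows within 0.01 of 0. In each preparation 5 of the 8 lay below 0, namely Scd1, Elovl1, Elovl6, Fads1 and Fads2, and Scd2, Elovl5 and Acsl3 lay above 0. Elovl1 and Fads1 passed the test in PolyA and none in RiboZero or NoSelect.

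Elovl1, which elongates long saturated and monounsaturated chains for sphingolipids (chromosome 4, 118428093 to 118432953, plus strand), fell in PolyA by 0.36 on the log2 scale (SE 0.07, adjusted p = 0.0098). Its lowest, median and highest CPM in PolyA were 197, 226 and 247 in WT and 153, 174 and 188 in KO. All 6 KO mice lay below all 6 WT mice. In RiboZero they were 105, 145 and 157 in WT and 100, 112 and 125 in KO, with WT6 within the KO range and the other 5 WT mice above it. NoSelect values of WT mice 3 to 6 were 45.8, 41.4, 38.4 and 32.3 CPM and KO mice 3 to 6 held 28.8, 37.2, 34.4 and 33.7, with WT6 again within the KO range. The log2 fold changes there were -0.31 (SE 0.09, adjusted p = 0.077) and -0.24 (SE 0.11, adjusted p = 0.36). Without WT6 the RiboZero difference was -0.39 (edgeR adjusted p = 0.0073), but WT6 was the lowest WT mouse, so leaving it out widens the difference. Of the 20 alternative fits in RiboZero, 3 called Elovl1, and the adjusted p (edgeR or DESeq2) reached 0.36. An exon of Elovl1 overlaps one of Cdc20 on the other strand in GENCODE M21. The kits mark strand, per the labels, and whether the counting used it is not given in the sources used here.

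Fads1, the delta-5 desaturase of polyunsaturated fatty acids (chromosome 19, 10182888 to 10196877, plus strand), fell in PolyA by 0.26 on the log2 scale (SE 0.05, adjusted p = 0.013). Its lowest, median and highest CPM in PolyA were 147, 166 and 177 in WT and 124, 139 and 145 in KO, without overlap. In RiboZero they were 100, 118 and 122 in WT and 92.7, 101 and 110 in KO, where WT6 was lower than 4 of the 6 KO mice. In NoSelect, WT mice 3 to 6 held 33.6, 32.7, 34.7 and 29.5 CPM and KO mice 3 to 6 held 24.7, 28.5, 25.7 and 29.8, with KO6 just above WT6. The log2 fold changes there were -0.19 (SE 0.06, adjusted p = 0.094) and -0.26 (SE 0.07, adjusted p = 0.12). Without WT6, again the lowest WT mouse, the RiboZero difference was -0.23 (edgeR adjusted p = 0.025). Of the 20 alternative fits in RiboZero, 2 called Fads1, and the adjusted p (edgeR or DESeq2) reached 0.23. With mice 3 to 6 alone, neither Elovl1 (-0.35, adjusted p = 0.051) nor Fads1 (-0.27, adjusted p = 0.088) passed the edgeR test in PolyA. Without KO mouse 6 both kept the call in PolyA, Elovl1 at -0.36 (adjusted p = 0.021) and Fads1 at -0.26 (adjusted p = 0.026).

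Fads2, the delta-6 desaturase and a neighbour of Fads1 on chromosome 19 (10062765 to 10101746, minus strand), differed in the same direction without passing. Its lowest, median and highest CPM were 29.4, 32.6 and 38.5 in WT and 26.2, 28.7 and 30.6 in KO RiboZero libraries. In PolyA they were 23.6, 29.1 and 33.5 in WT and 16.6, 22.7 and 29.5 in KO. WT6 was the lowest WT mouse in both and lay within the KO range. Among NoSelect libraries, WT mice 3 to 6 held 10.8, 10.4, 10.6 and 8.64 CPM and KO mice 3 to 6 held 8.00, 9.22, 8.04 and 8.71. The log2 fold changes were -0.21 (SE 0.07), -0.34 (SE 0.12) and -0.25 (SE 0.08), with adjusted p = 0.11, 0.16 and 0.17.

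Scd1, the delta-9 desaturase that makes oleate and palmitoleate (chromosome 19, 44394455 to 44407879, minus strand), had the largest differences and the widest spread of this group. The lowest, median and highest CPM were 2050, 2969 and 3714 in WT and 1246, 2483 and 3023 in KO RiboZero libraries. In PolyA they were 1071, 1792 and 2312 in WT and 563, 1291 and 1617 in KO. KO3 and KO5 lay below every WT mouse in both, whereas KO1, KO2, KO4 and KO6 lay within the WT range. The NoSelect libraries of WT mice 3 to 6 held 1013, 952, 916 and 695 CPM and KO mice 3 to 6 held 341, 615, 422 and 785, with KO6 alone above a WT mouse. Fitted log2 fold changes were -0.38 (SE 0.22), -0.55 (SE 0.27) and -0.72 (SE 0.25), with adjusted p = 0.44, 0.31 and 0.21. Without KO mouse 6 they were -0.46, -0.64 and -0.96, with adjusted p = 0.35, 0.27 and 0.063.

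Elovl6, which elongates palmitate to stearate (chromosome 3, 129532355 to 129638495, plus strand), was the least abundant gene of the list per length. Its lowest, median and highest CPM were 9.15, 9.47 and 11.4 in WT and 6.08, 8.32 and 9.74 in KO RiboZero libraries. In PolyA they were 8.00, 9.01 and 11.4 in WT and 6.40, 8.11 and 10.0 in KO. The groups overlapped in both, with KO3 the lowest library. NoSelect values of WT mice 3 to 6 were 2.47, 2.35, 2.82 and 2.48 CPM and KO mice 3 to 6 held 1.73, 2.38, 2.15 and 2.07. The log2 fold changes were -0.25 (SE 0.10), -0.19 (SE 0.13) and -0.28 (SE 0.11), with adjusted p = 0.24, 0.48 and 0.26. On the other side of 0, Scd2, a second delta-9 desaturase, stood at 0.20, 0.05 and 0.12, Elovl5, an elongase of polyunsaturated chains, at 0.11, 0.12 and 0.07, and the acyl-CoA synthetase Acsl3 at 0.19, 0.09 and 0.03.

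**Figure D2:**
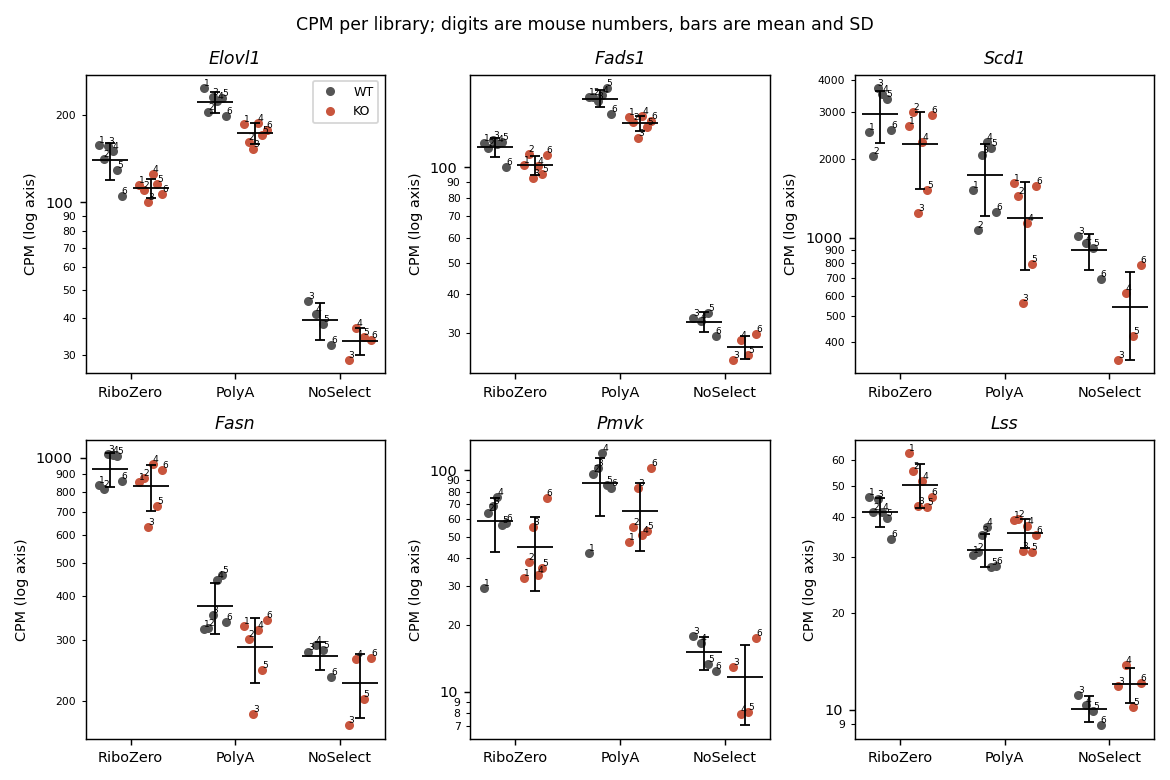
CPM on a log axis for Elovl1, Fads1, Scd1, Fasn, Pmvk and Lss in each library, grouped by preparation, with WT in grey, KO in orange, the mouse number beside each point, and the mean and SD as bars. The PolyA libraries of Elovl1 and Fads1 separate by genotype, KO3 and KO5 are lowest for Scd1 and Fasn, and Pmvk is low in WT1.

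Some markers of alveolar type 2 cells, where the lung makes much of its surfactant lipid, fell as well. Of 9 such markers 1 fell in RiboZero, 3 in PolyA and 2 in NoSelect, with median log2 fold changes of -0.17, -0.38 and -0.18. In each preparation 1 of the 9 lay above 0. Of all rows, 3.46%, 4.03% and 2.17% passed in either direction. The surfactant protein gene Sftpa1 fell in all preparations, by 0.49, 0.66 and 0.57 on the log2 scale (edgeR adjusted p = 0.0078, 0.0046 and 0.018). The PolyA calls included Sftpd and Napsa. Summed over the 9 markers as CPM of the total count, the libraries ranged from 12208 to 15678 CPM in WT and 10349 to 14545 in KO in RiboZero, from 19097 to 26457 and 17286 to 23277 in PolyA, and from 3698 to 4456 and 2676 to 4218 in NoSelect. Their part in the differences of Elovl1 and Fads1 was not tested, and in whole lung fewer cells of a type and less RNA per cell cannot be told apart. Of the other marker lists, Ager of 6 alveolar type 1 markers rose in RiboZero, Mrc1 of 7 alveolar macrophage markers fell in PolyA and Ahsg of 8 hepatocyte markers fell in PolyA, where it held at most 50 counts. Of the 8 hepatocyte markers 3 were tested in PolyA and NoSelect and 1 in RiboZero, and no other passed. Elsewhere no tested marker passed: 7 of 8 white adipocyte markers were tested, 5, 5 and 4 of 7 brown adipocyte, 6, 7 and 6 of 7 cardiomyocyte, and all 5 endothelial, 5 airway and 6 lymphocyte markers. Of the defining fat genes, Ucp1 of brown fat (at most 7 counts in a library) and Lep of white fat (at most 28) were near 0. Other white fat genes were not: Adipoq reached 297 counts in a library, Cfd ran from 1.05 to 27.9 CPM and Cidec from 6.15 to 13.1 CPM in RiboZero.

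Other genes of the pathway, 49 in 4 lists, gave a single call. Of 23 further genes of fatty acid and glyceride synthesis, Elovl7, another elongase, fell in RiboZero by 0.31 on the log2 scale (adjusted p = 0.045), and stood at -0.26 and -0.32 in PolyA and NoSelect (adjusted p = 0.12 and 0.075). None of 11 further sterol and SREBP genes, 10 genes of the oxysterol receptors and cholesterol export, and 5 genes of NADPH supply passed in any preparation. Elovl3 was under the filter in all preparations and Elovl4 in RiboZero.

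Whether the KO difference depended on the preparation was tested as an interaction. None of the 36 genes passed for any pair of preparations in edgeR or DESeq2, none had an unadjusted p under 0.05, and 0 of all rows passed (0%). In this fit, which did not block on the mouse, the KO effect in PolyA less that in RiboZero lay between -0.20 and 0.09. That in PolyA less that in NoSelect lay between -0.19 and 0.24, and that in RiboZero less that in NoSelect between -0.14 and 0.34. NoSelect lacked some mice of the other preparations, so the ranges against it also carry differences between mice. The 0.34 was that of Scd1, which stood at -0.001 with the mouse as a block. For PolyA less NoSelect, Scd1 stood at 0.145 without the block and at -0.256 with it. Blocking on the mouse, 3, 9 and 4 genes had an unadjusted p under 0.05 and the lowest adjusted p was 0.91, 0.37 and 1. For PolyA and NoSelect the 9 were Fasn, Scd2, Insig1, Dhcr7, Scd1, Lss, Elovl1, Fdft1 and Hmgcs1. Elovl1 stood at -0.15 there (edgeR adjusted p = 0.63). The share of all rows at that unadjusted p is not given here, so these counts are not shown to be particular to the list. The calls of Elovl1 and Fads1 in PolyA are therefore not shown to differ from the other preparations.

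The level of several genes depended on the preparation itself. Acaca, Fasn and Scd1 were lower in PolyA than in RiboZero, by log2 fold changes of -1.86 (SE 0.07), -1.76 (SE 0.10) and -1.19 (SE 0.18). They were also lower in PolyA than in NoSelect, at -1.70 (SE 0.08), -1.75 (SE 0.12) and -1.11 (SE 0.20), each time with adjusted p of at most 4.0e-05. They were the 3 genes of 36 past an adjusted p under 0.05 and a log2 fold change of at least 1 in size, where 23.2% (16.3% lower) and 24.6% (15.2% lower) of all rows passed. Between RiboZero and NoSelect 0 of 36 passed, against 4.04% of all rows. Without the minimum size, 30 genes differed between PolyA and RiboZero, 16 higher in PolyA and 14 lower. The share of all rows past the adjusted p alone was not counted, so this is not shown to be particular to these genes. The largest positive difference was that of Ebp, at 0.68 (SE 0.03) against RiboZero and 0.92 (SE 0.05) against NoSelect.

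Genes with more exon bases tended to be lower in PolyA. Spearman's rho between the total exon length of a gene and its log2 fold change was -0.53 when PolyA was set against RiboZero and -0.65 when it was set against NoSelect. It was -0.17 between the preparations without selection of polyadenylated RNA. These are descriptions over 36 genes that share the same libraries and are not independent replicates. Acaca has 17074 and Fasn 10947 exon bases in GENCODE M21. Genes close to Scd1 in exon length (4892) ranged from -0.84 (Hsd17b7, 5104) to 0.13 (Fads1, 4812) against RiboZero, with Sc5d (4866) at -0.60. Acss2, at 10163 exon bases, stood at -0.09 (SE 0.06) against RiboZero.

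**Figure D3:**
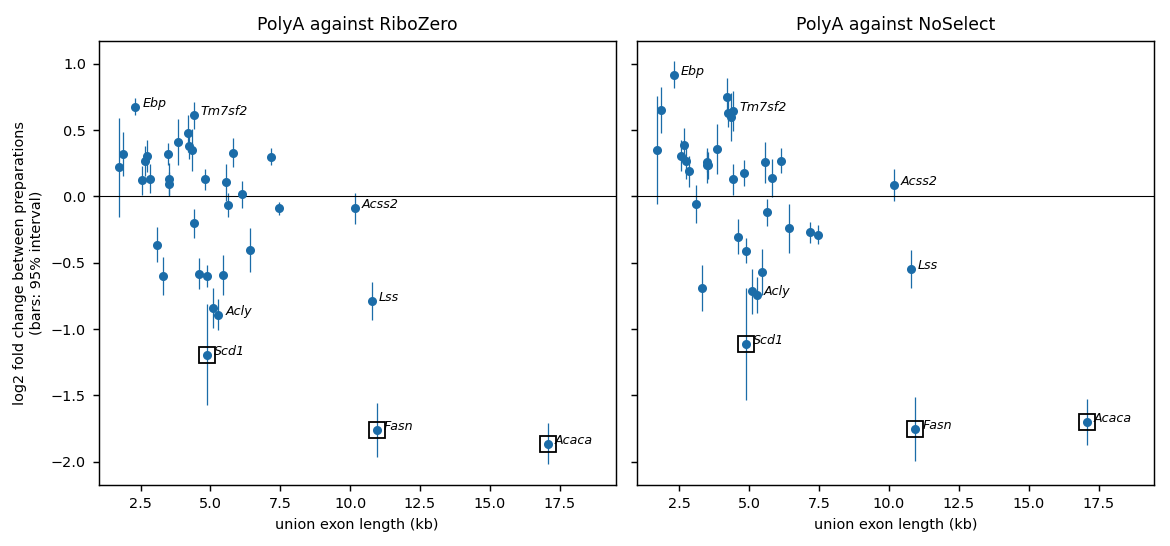
Fitted log2 fold change between preparations (y axis, 95% intervals as bars) against union exon length in kb (x axis) for the 36 genes, PolyA against RiboZero on the left and against NoSelect on the right. Squares mark Acaca, Fasn and Scd1, the genes past the threshold, all below 0, and Ebp is the highest point in both.

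Per kilobase of exon, Scd1 was the most abundant gene of the list in every preparation, at 605 CPM per kb in WT RiboZero, 355 in PolyA and 183 in NoSelect libraries. Scd2 followed at 132, 117 and 38.2 CPM per kb. In RiboZero Fasn (84.7), Elovl5 (61.9), Elovl1 (51.2) and Acly (48.8 CPM per kb) came next, while in PolyA the order was Elovl5 (83.5), Elovl1 (81.3), Pmvk (51.3), Acly (34.6) and Fasn (34.2). The regulators Srebf1 and Srebf2 stood at 20.1 and 18.6 CPM per kb in RiboZero. The lowest were Elovl6 at 1.54, Tm7sf2 at 1.75 and Dhcr7 at 2.02 CPM per kb in RiboZero. Levels per length use annotated exons, of which a lung transcript may hold fewer.

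Mice of one genotype differed from each other, and they did so alike in separate libraries. Each mouse's deviation from its genotype mean in RiboZero was compared with that in PolyA, gene by gene over 12 mice, for the 35 genes other than Pmvk, whose values leave a gap. Pearson's r had a median of 0.75 and passed a permutation test within genotypes (100000 resamples, adjusted over 36 genes) for 26 of 35 genes, and Spearman's rho passed for 21. Leaving out the 2 mice farthest from the median kept r above 0.5 for 22 genes. The share of all rows that would pass these tests was not counted. Over 11766 rows, the deviations of RiboZero and PolyA libraries of the same mouse correlated at 0.498 to 0.792. Such likeness is therefore not limited to the genes of the list. Scd1 had r = 0.96 (rho = 0.84, adjusted p = 0.0014 and 0.011), and r = 0.94 without KO3 and KO5. Fads1 had r = 0.73 (rho = 0.39, adjusted p = 0.031 and 0.27), but r = 0.11 without WT6 and KO3, so its relation rests on those mice. For Srebf2 and Scap r was 0.04 and 0.05, so their differences among mice of a genotype were not seen to repeat between these preparations.

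Summed up by role, 3 mice stood low in fatty acid genes whatever the preparation. The mean log2 deviation from the WT mean over 13 fatty acid genes was -0.31, -0.41 and -0.32 in KO3 (RiboZero, PolyA and NoSelect), -0.22, -0.25 and -0.23 in KO5, and -0.14, -0.25 and -0.17 in WT6. These were the lowest 3 mice in each preparation. The other mice lay between -0.05 and 0.12. Over the 18 mevalonate and sterol genes the same 3 mice were lowest, with WT6 at -0.12, -0.15 and -0.12, while KO1 was highest in RiboZero at 0.18. A low level of these genes was thus seen in mice of both genotypes, 1 WT and 2 KO.

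**Figure D4:**
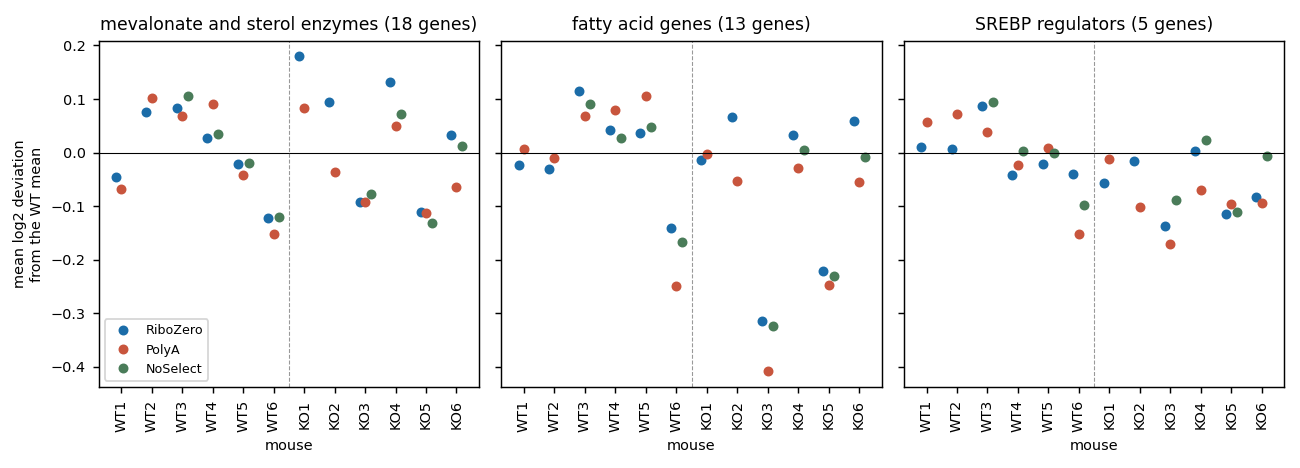
Mean log2 deviation from the WT mean (y axis) of 18 mevalonate and sterol genes, 13 fatty acid genes and 5 SREBP regulators in each mouse (x axis), coloured by preparation, with WT left and KO right of the dashed line. KO3, KO5 and WT6 lie lowest for the fatty acid genes in all 3 preparations.

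Summed white adipocyte markers were low in these 3 mice as well, and brown adipocyte markers are not given by mouse. By their mean log2 deviation, alveolar type 2 markers were lowest in KO3, and KO1 lay below KO5 in RiboZero and PolyA. The summed white adipocyte markers, as CPM of the total count, were 26.2 in RiboZero, 32.5 in PolyA and 7.35 in NoSelect in WT6, 26.7, 34.6 and 6.34 in KO3, and 36.3, 36.1 and 8.04 in KO5. The 3 mice were the lowest in PolyA and NoSelect, and in RiboZero WT4 (31.9) lay between KO3 and KO5. WT4 was also low in PolyA, at 38.8, while its fatty acid genes stood at 0.04 in RiboZero and 0.08 in PolyA. KO1 held 37.9 in RiboZero, with its fatty acid genes at -0.01. Over all mice the white adipocyte sums reached 71.9, 126 and 17.5. The mean log2 deviation of the 9 alveolar type 2 markers was -0.37, -0.55 and -0.41 in KO3, -0.23, -0.27 and -0.27 in KO5, and -0.11, -0.12 and -0.14 in WT6. For these markers WT6 was not among the lowest mice: KO1 to KO5 and WT2 lay below it in RiboZero and PolyA. KO1 and KO2, whose fatty acid genes were near the WT mean, both stood at -0.40 in PolyA, and WT2 stood at -0.27 there and at -0.18 in RiboZero, with its fatty acid genes at -0.01 and -0.03. The summed cardiomyocyte markers were lowest in KO3 in each preparation, at 35.5, 116 and 9.79 CPM, while KO5 (168, 365 and 46.6) and WT6 (188, 349 and 56.4) lay in the middle of the mice. The part of these cell types in the low mice was not tested.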

How the data were processed

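RNA of 12 mouse lungs was sequenced in 32 libraries. Estimated counts of all genes were deposited by the authors in 1 table. The submitters' processing notes name Salmon 1.4.0, UMI-tools 1.1.1 and the build GRCm38, with no role stated for each. Of the values, 12.81% were not whole. The table held 37751 gene and 3936 transcript identifiers, all of its 32 columns were matched by name, and symbols were matched for 37649 rows.

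Counts were rounded and tested in R 4.3.3 with edgeR 4.0.16 (TMM scaling, filterByExpr, glmQLFit and glmQLFTest, Benjamini-Hochberg adjustment over all rows tested), genotype alone within a preparation, an interaction between preparations, and genotype as a covariate for preparation contrasts, where a call also needed a log2 fold change of at least 1 in size. CPM values carry the TMM scale of their preparation. Intervals are 95% intervals of the fitted log2 fold change. Permutations used Python 3.11.15 with numpy 2.4.6 and scipy 1.17.1. Coordinates and exon lengths come from GENCODE M21, and promoter windows from RefSeq. The fits were tested on simulated counts.

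The members and lists were chosen with earlier results of these data known. Genes called for genotype in any preparation were given library by library, filled up to 8 genes by the mean absolute log2 fold change. Replicates of a group are separate mice. Chi-square per degree of freedom between replicates ran from 7.02 to 69.9 over 72 pairs, so none was a library deposited more than once. Libraries of 1 mouse are paired across preparations, since they come from the same animal: their deviations from group means correlated at 0.470 to 0.792 over 11766 rows with at least 50 counts, and each was closest to its own mouse (12 of 12, 8 of 8 and 8 of 8 pairs). A number shared by WT and KO does not mark a shared animal.

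Alternatives were DESeq2 1.42.0, median-of-ratios scaling, other filters, no Lars2 and Gm42418, replicate blocks, mice 3 to 6 alone, all 32 libraries in 1 fit, and leaving out each mouse.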

Additional observations from a re-analysis of the deposited data

Results flagged for a closer look

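The lowest and highest library of each group of 4 or 6 was set against the gap to its neighbour for Acaca and the 8 genes given library by library, in 54 groups, and chance marks about 1 in 20 groups. Fads1 was marked in WT RiboZero libraries: WT6 stood at 100.3 CPM while the other 5 lay between 115 and 122, a gap of 0.685 of the whole range. Elovl6 was marked in WT PolyA libraries: WT2 stood at 11.4 CPM while the other 5 lay between 8.00 and 9.20, a gap of 0.651 of the range. WT2 was also the highest Elovl6 library of WT in RiboZero, at 11.4 CPM.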

How the results depend on the processing

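Of 163 recomputed counts of genes called, 156 stayed within 1.5 times the reported count. None of the 578 recomputed values of single genes and marker sums changed sign past a call, but marker sums carry no call and could not fail this. Without KO mouse 6, log2 KO over WT in NoSelect went from 0.09 to -0.16 for white adipocyte sums. It went from 0.01 to -0.16 for brown adipocyte sums and from 0.14 to -0.003 for hepatocyte sums. In RiboZero, 0 genes became 5 with DESeq2, 1 with all 32 libraries in 1 fit (Elovl1), and 0 to 2 on leaving out a mouse: 1 without KO 5 (Ebp, adjusted p = 0.038) and 2 without WT 6 (Elovl1 and Fads1). In PolyA, 2 genes became 1 with mice 3 to 6 alone (Ebp, higher, adjusted p = 0.042), 4 with all 32 libraries in 1 fit (Elovl1, Fads1 and Fads2 lower, Ebp higher), and 2 to 3 on leaving out a mouse. In NoSelect, 0 genes became 1 with DESeq2 (Fads1). Elovl1 and Fads1 each kept the PolyA call in 19 of 20 alternatives, all but mice 3 to 6 alone. Fewer samples were tested there, and otherwise the cause was not tested. Without KO mouse 6 the counts were 0, 2 and 0, and 4, 2 and 6 genes changed the sign of a fold change that had not passed the test.

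A replicate block by number, which names different animals in WT and KO, gave 0, 2 and 0 genes (and 325, 577 and 102 of all rows, against 579, 694 and 372 without it). Same-numbered WT and KO mice correlated at -0.07 to 0.32 in RiboZero, -0.05 to 0.32 in PolyA and -0.17 to 0.01 in NoSelect, and 2 of 6, 2 of 6 and 0 of 4 correlated best with their own number. With the mouse as a replicate block, the counts for interactions (0, 0 and 0) and preparations (3, 3 and 0) did not change. Over all rows, calls for genotype ran from 255 to 985 in RiboZero, 442 to 1564 in PolyA and 102 to 874 in NoSelect. Among values that did not pass, Elovl1 in NoSelect was -0.15 without WT3, Elovl6 in PolyA -0.12 without KO3 or WT2, and, with mice 3 to 6 alone, Scd1 was -0.72 in RiboZero and -0.95 in PolyA, Fasn -0.27 in RiboZero and Lss 0.08 in PolyA. Genes near 2 CPM in NoSelect, such as Mvd and Tm7sf2, had among the wider intervals.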

Other observations

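Among the rows averaging at least 1 CPM in RiboZero and PolyA (14723 rows), those whose pattern over the 12 mice was most like that of Pmvk were sought after its gap had been seen. Rows with the same sign in the 2 preparations were ordered by the smaller of their absolute Pearson correlations, on the log2 scale. First was Tnfrsf12a, the receptor of the cytokine TWEAK, which ran from 8.45 to 27.5 CPM in RiboZero and from 23.2 to 59.6 CPM in PolyA, with Spearman's rho of 0.89 and 0.94 to Pmvk. AA986860 ran from 79.0 to 126 CPM in RiboZero, with rho of 0.90 and 0.85. Maff, a small Maf transcription factor, ran from 10.1 to 50.4 CPM in RiboZero (rho = 0.90 and 0.79), and Rcan1, a regulator of calcineurin, from 27.9 to 86.6 CPM (rho = 0.82 and 0.81). S1pr2, a receptor of sphingosine-1-phosphate, ran the other way (rho = -0.87 and -0.83). Within the 7 mice above the gap of Pmvk, rho was 0.54 and 0.71 for Tnfrsf12a and 0.64 and 0.54 for AA986860. It was 0.64 and 0.04 for Maff and 0.32 and 0.32 for Rcan1. For Rcan1 much of the likeness thus lies in the gap, and for Maff this was seen in PolyA alone. These rows were chosen for their likeness from all rows, share the libraries of Pmvk, and carry no test.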
